A study of Mus musculus with 53 samples.

Results

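Impdh1, Nabp1 and 4931406C07Rik make up a set of genes with higher signals in cells carrying EBF1 than in cells carrying PPARg2, and Impdh2 was added as the paralogue of Impdh1. The first 3 were chosen on intensities of d4 or d10, so their differences between EBF1 and the other cells on those days are given as a description with no test. Of the 4 genes, 3 were measured, among 8252 genes on the array, by 5 of the 12488 probe sets, and all 5 passed the filter on low intensities. Impdh2 was not analysed here, because no probe set of the table was annotated to it alone. Probe sets annotated to several genes were not assigned to any gene. The values come from NIH-3T3 cells, an immortalised mouse embryo fibroblast line, transduced with EBF1, with PPARg2 or with an empty vector. All 3 kinds of cells were given adipogenic hormones. Total RNA was taken before the hormones (d0) and on d2, d4 and d10 after stimulation, and was hybridised to Affymetrix MG_U74Av2 arrays. The 53 arrays fell into 12 groups: 4 arrays of each insert on d0 and on d2, 7 on d4, and on d10 2 arrays of EBF1, 3 of PPARg and 3 of vector. The cells were transduced populations of 1 cell line, and all groups after d0 had been given the hormones. The labels name 7 independent stimulations, and n below counts arrays, whose number limited the precision, most of all on d10. Where arrays of a group did not come from separate cultures, a p-value covers only the spread between those arrays.

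EBF1 is a transcription factor best known for B lymphocyte development, and PPARg2 is the adipocyte form of the nuclear receptor that drives fat cell differentiation. IMP dehydrogenase, made from Impdh1 or Impdh2, catalyses the rate-limiting step of guanine nucleotide synthesis, in which IMP is oxidised to XMP. Nabp1 encodes a single-stranded DNA binding protein that takes part in the repair of double-strand breaks. 4931406C07Rik encodes a poorly described protein whose human counterpart was reported to have ester hydrolase activity.

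On GRCm38.p6, Impdh1 lies on chromosome 6 from 29200436 to 29216364, Nabp1 on chromosome 1 from 51464968 to 51478475, and 4931406C07Rik on chromosome 9 from 15283337 to 15306448. Impdh2 lies on chromosome 9 from 108560436 to 108565577. The 250 bases before the annotated transcript starts were read from RefSeq for 6 starts of the 3 measured genes, and 4 windows are shown because these genes had higher signals with EBF1 late in the course. Each is given 5′ to 3′ on the gene's strand, which is the minus strand in every case, and capitals mark the GC box GGGCGG on either strand.
Impdh1, start 1, chr6:29216365-29216614: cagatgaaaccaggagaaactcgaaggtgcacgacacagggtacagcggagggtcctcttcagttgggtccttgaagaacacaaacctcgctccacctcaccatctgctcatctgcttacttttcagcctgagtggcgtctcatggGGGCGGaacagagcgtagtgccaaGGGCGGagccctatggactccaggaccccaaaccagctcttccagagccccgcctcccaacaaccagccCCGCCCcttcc
Nabp1, start 1, chr1:51478400-51478649: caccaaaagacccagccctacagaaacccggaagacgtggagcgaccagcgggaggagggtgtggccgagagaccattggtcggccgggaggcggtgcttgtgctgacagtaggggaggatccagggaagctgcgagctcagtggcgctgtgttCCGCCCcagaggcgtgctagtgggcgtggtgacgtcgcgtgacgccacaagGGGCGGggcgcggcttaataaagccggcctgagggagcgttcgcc
4931406C07Rik, start 1, chr9:15306449-15306698: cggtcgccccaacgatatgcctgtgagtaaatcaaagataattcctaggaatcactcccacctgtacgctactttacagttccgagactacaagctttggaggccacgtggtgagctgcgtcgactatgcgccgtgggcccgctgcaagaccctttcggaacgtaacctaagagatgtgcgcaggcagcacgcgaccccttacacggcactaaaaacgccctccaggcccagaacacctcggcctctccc
4931406C07Rik, start 2, chr9:15306168-15306417: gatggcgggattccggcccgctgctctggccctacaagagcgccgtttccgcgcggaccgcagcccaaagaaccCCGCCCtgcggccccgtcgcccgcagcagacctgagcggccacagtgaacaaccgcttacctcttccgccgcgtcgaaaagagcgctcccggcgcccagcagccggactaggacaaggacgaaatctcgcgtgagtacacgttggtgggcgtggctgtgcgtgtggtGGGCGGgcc
The GC box occurred 3 times at this Impdh1 start, 2 times at the other Impdh1 start, 2 times at Nabp1 and 2 times at start 2 of 4931406C07Rik, and not at its starts 1 and 3. It was present in 32.7% of 32817 windows of the same length. The EBF1 core CCCNNGGG, held by 11.8% of all windows, had no match in any of the 6, and neither did its longer form TCCCNNGGGA, held by 0.780%. The PPAR response element AGGTCANAGGTCA, held by 0.0335% of windows, and its half-site AGGTCA, held by 14.0%, had no match either; both strands were searched, each half-site is part of the element, and each long EBF1 form holds the core. These counts describe letters in the windows alone.

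Impdh1 read between 115 and 162 in all cells through d2 and was higher in the cells with EBF1 from d4 on. On d0 the Impdh1 intensity (probe set 98390_at) was 153, 148, 150 and 141 on the EBF1 arrays, 145, 143, 157 and 155 on the PPARg arrays, and 133, 140, 139 and 137 on the vector arrays. The EBF1 and PPARg arrays overlapped, and the vector arrays lay just below both. On d2 Impdh1 was 142, 144, 162 and 162 with EBF1, 140, 140, 152 and 150 with PPARg, and 141, 140, 115 and 138 with vector. Again the EBF1 and PPARg arrays overlapped.
On the log2 scale, EBF1 minus PPARg for Impdh1 was -0.02 ± 0.15 on d0 (SE, n = 4 each, 95% interval -0.33 to 0.29, limma adjusted p = 1.0) and 0.07 ± 0.15 on d2 (n = 4 each, -0.24 to 0.38, limma adjusted p = 0.82). The difference between d2 and d0 was 0.08 ± 0.22 (SE, limma adjusted p = 0.87). Each SE of a log2 difference here rests on a spread pooled over all 12 groups, not on the groups named alone. The log2 SD of Impdh1 on d0 was 0.05 with EBF1, 0.07 with PPARg and 0.03 with vector. Among the 4 probe sets of Impdh1 and 4931406C07Rik, 0 passed the limma test in EBF1 minus PPARg on d0, where 6.02% of the 7619 tested probe sets did, and 0 on d2, where 5.15% did; for d2 against d0 it was 0, beside 6.54%. In EBF1 minus PPARg, an unadjusted limma p under 0.05 was held by 1147 of the 7619 probe sets on d0 and 1160 on d2. On d4 it was held by 1431 and on d10 by 561. Among the 4 probe sets the unadjusted counts were also 0 in these 3 comparisons. The same held for EBF1 minus vector, with 0 of 4 on d0 (0.814% of all) and on d2 (1.54%), and for PPARg minus vector, with 0 of 4 on d0 (3.60%) and on d2 (0.564%). The arrays fell into 3 runs, told apart by a comment in the array experiment files, and no source used here says whether these mark hybridisation or stimulation batches. In run 1 alone, with 2 arrays of each insert, PPARg minus vector on d0 was -0.49, -0.45 and -0.61 for the 3 probe sets of 4931406C07Rik (limma adjusted p = 0.00644, 0.0127 and 0.00704). These are readings of 1 gene on the same arrays, and the share of all probe sets passing in that fit is not given here.

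On d4 Impdh1 ran from 384 to 848 with a median of 550 on the 7 EBF1 arrays, from 173 to 240 with a median of 209 on the 7 PPARg arrays, and from 134 to 173 with a median of 154 on the 7 vector arrays. The lowest EBF1 array was above every PPARg and vector array. The share of all probe sets whose arrays did not overlap was not counted on any day. By the limma test, a different measure, 5.95% of all probe sets passed in EBF1 minus PPARg on d4. The means were 565 ± 156 with EBF1, 207 ± 29.2 with PPARg and 154 ± 15.1 with vector (SD, n = 7 each). The log2 difference between EBF1 and PPARg cells was 1.42 ± 0.12 (SE), or 2.67-fold, and stood at position 1 from the top among the 7619 probe sets. EBF1 minus vector was 1.84 ± 0.12 and PPARg minus vector 0.42 ± 0.12, the second with overlapping arrays; both share the vector arrays.
On d10 Impdh1 was 1265 and 611 with EBF1, 305, 347 and 379 with PPARg, and 177, 166 and 152 with vector. The groups stood in that order with no overlap, which groups of 2 and 3 arrays can show without a difference. By the limma test 1.33% of all probe sets passed in EBF1 minus PPARg on d10. The log2 difference was 1.36 ± 0.20 for EBF1 minus PPARg (SE, n = 2 and 3, 2.57-fold, position 7 from the top), 2.41 ± 0.20 for EBF1 minus vector and 1.05 ± 0.18 for PPARg minus vector. The 2 EBF1 arrays of d10 were far apart: without replicate 1 the difference from PPARg was 0.84, and without replicate 2 it was 1.89. The log2 SD on d10 was 0.74 with EBF1 and 0.16 with PPARg, a spread that the pooled SE of 0.20 does not show. As the RNA came from whole cultures, a different number of cells with the transcript and a different amount of RNA per cell cannot be told apart.

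Nabp1 was at or below the floor of 54.5, the lowest intensity read as a signal, on every array of d0 and d2. Its intensity (probe set 95655_at) lay between 25.6 and 51.4 on those 24 arrays, and no fold was formed between such groups. On d4 Nabp1 ran from 133 to 400 with a median of 296 with EBF1, from 86.5 to 170 with a median of 101 with PPARg, and from 49.3 to 84.5 with a median of 75.3 with vector. The EBF1 and PPARg arrays overlapped, while all arrays of both lay above all vector arrays, 2 of which were at the floor. The log2 difference was 1.04 ± 0.17 for EBF1 minus PPARg (SE, n = 7 each, 2.06-fold, position 5 from the top), 1.80 ± 0.17 for EBF1 minus vector and 0.76 ± 0.17 for PPARg minus vector. The differences from vector depended on the floor: with the floor at the 40th percentile they were 1.08 for EBF1 minus vector and 0.19 for PPARg minus vector.
On d10 Nabp1 was 907 and 564 with EBF1, 325, 363 and 551 with PPARg, and 84.2, 70.8 and 37.5 with vector. The lower EBF1 array and the highest PPARg array were close, and all 5 were far above the vector arrays, 1 of which was at the floor. The log2 difference was 0.83 ± 0.30 for EBF1 minus PPARg (SE, n = 2 and 3, position 51 from the top), 3.38 ± 0.30 for EBF1 minus vector and 2.55 ± 0.27 for PPARg minus vector. With the higher floor the differences from vector on d10 were 2.63 with EBF1 and 1.80 with PPARg. Without EBF1 replicate 1 the difference from PPARg was 0.49, and without replicate 2 it was 1.17. Nabp1 on d10 lay above the d0 floor by 3.71 in EBF1 cells and 2.88 in PPARg cells on the log2 scale. The arrays of d10 and d0 were of different runs, and with the run as a block these values were 3.23 and 2.40, and without EBF1 replicate 1 of d10 the first was 3.37. Nabp1 passed the filter on low values through 12 of the 53 arrays alone, and it was at the floor on 27.

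4931406C07Rik was measured by 3 probe sets, of which 96090_g_at had the highest mean. Its intensity on d0 was 257, 183, 176 and 170 with EBF1, 175, 191, 224 and 155 with PPARg, and 234, 269, 232 and 173 with vector. On d2 it was 160, 174, 161 and 135 with EBF1, 148, 163, 140 and 134 with PPARg, and 158, 165, 168 and 128 with vector. The 3 kinds of cells overlapped on both days. EBF1 minus PPARg was 0.07 ± 0.23 on d0 (SE, n = 4 each, 95% interval -0.39 to 0.53, limma adjusted p = 0.99) and 0.10 ± 0.23 on d2 (-0.36 to 0.56, limma adjusted p = 0.81), and d2 against d0 gave 0.03 ± 0.32 (limma adjusted p = 0.97).
On d4 4931406C07Rik ran from 213 to 661 with a median of 295 with EBF1, from 189 to 327 with a median of 242 with PPARg, and from 166 to 290 with a median of 190 with vector. All 3 groups overlapped, and 2 EBF1 arrays, the higher at 661, stood above the rest. The log2 difference between EBF1 and PPARg cells was 0.43 ± 0.17 (SE, n = 7 each), at position 74 from the top. On d10 it was 1927 and 936 with EBF1, 434, 416 and 620 with PPARg, and 413, 317 and 369 with vector. The EBF1 arrays were above all others, and PPARg was just above vector. The log2 difference on d10 was 1.48 ± 0.29 for EBF1 minus PPARg (SE, n = 2 and 3, 2.79-fold, position 4 from the top), 1.88 ± 0.29 for EBF1 minus vector and 0.40 ± 0.26 for PPARg minus vector. The EBF1 minus PPARg difference was 0.96 without EBF1 replicate 1 and 2.00 without replicate 2. The log2 SD on d10 was 0.74 with EBF1 and 0.32 with PPARg, beside the pooled SE of 0.29.

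**Figure D1:**
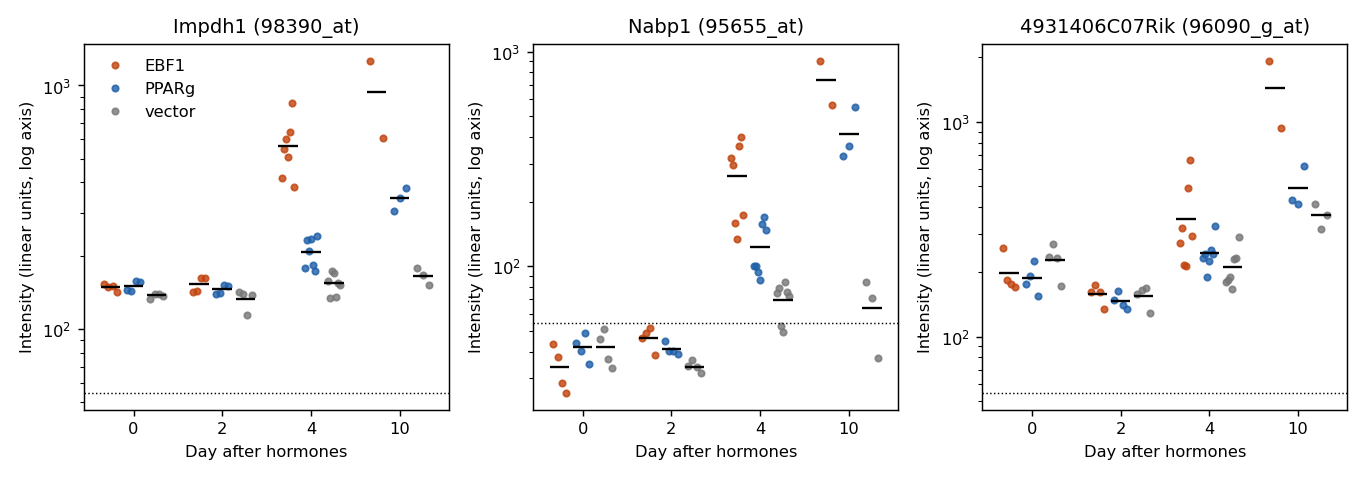
Intensity (linear units on a log axis) of Impdh1, Nabp1 and 4931406C07Rik on each array, by day after hormones, with EBF1, PPARg and vector from left to right; black bars are group means and the dotted line is the floor of 54.5. On d4 the lowest Impdh1 array with EBF1, at 384, lies above the highest with PPARg, at 240, and Nabp1 is under the floor throughout d0 and d2.

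**Figure D2:**
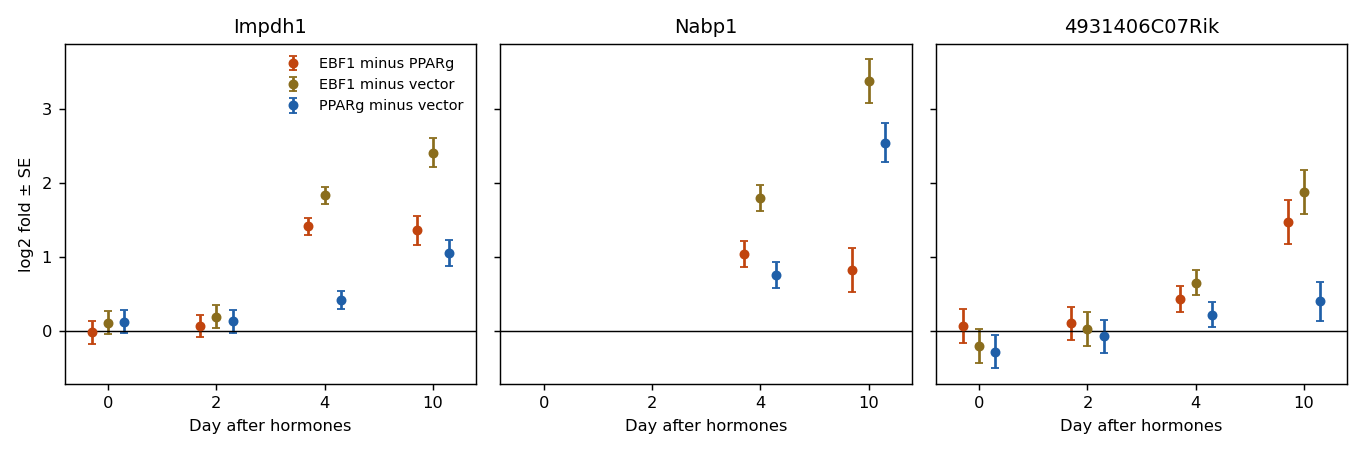
Log2 fold ± SE of the 3 genes by day for EBF1 minus PPARg, EBF1 minus vector and PPARg minus vector; Nabp1 has no points on d0 and d2, where both groups were at the floor. For Impdh1 the points of d0 and d2 lie between -0.02 and 0.20, and EBF1 minus PPARg is 1.42 on d4 and 1.36 on d10.

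The 3 probe sets of 4931406C07Rik did not give the same size of difference. Probe set 96089_at followed 96090_g_at closely, with Pearson's r of 0.98 over the 53 arrays, which share their scaling, and its EBF1 minus PPARg difference was 0.48 on d4 and 1.07 on d10. Probe set 96091_at was lower and flatter, with r of 0.64 to the first and 0.58 to the second. It read 346 and 201 on d10 with EBF1, 178, 161 and 210 with PPARg, and 168, 138 and 148 with vector. There the lower EBF1 array lay within the PPARg arrays, and EBF1 minus PPARg was 0.53 on d10 and 0.11 on d4.

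**Figure D3:**
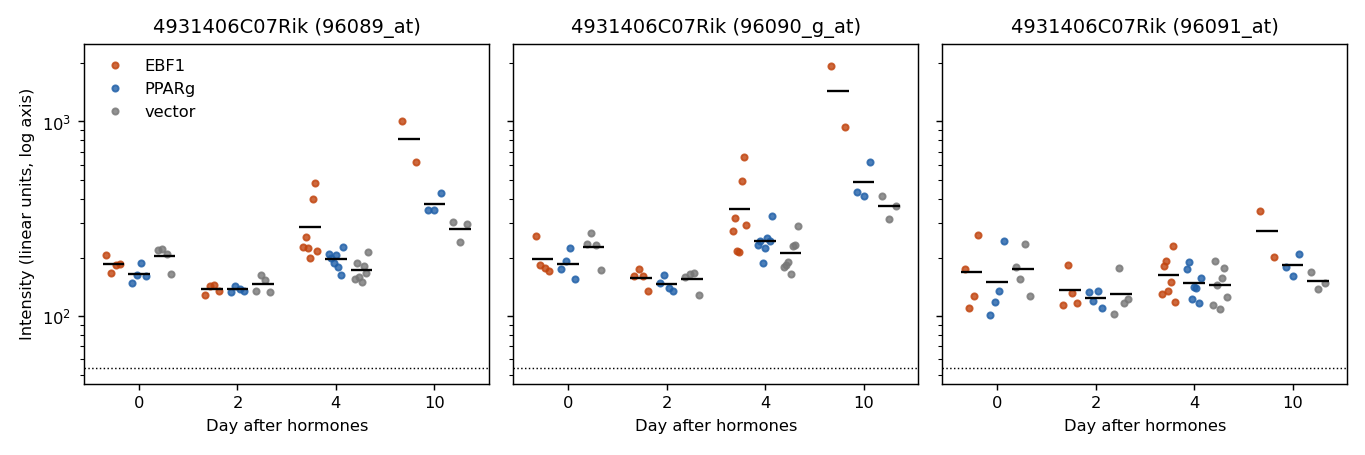
Intensity (linear units on a log axis) of the 3 probe sets of 4931406C07Rik on each array, by day, with EBF1, PPARg and vector from left to right; black bars are group means and the dotted line is the floor. The EBF1 arrays of d10 stand apart in 96089_at and 96090_g_at, while in 96091_at the array at 201 lies among the PPARg arrays of 161 to 210.

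The order of the group means differed between the genes. Impdh1 was highest in EBF1 d10, with a mean of 938, then in EBF1 d4, at 565, with overlapping arrays, then in PPARg d10, at 343, and PPARg d4, at 207. The first step with no overlap was from EBF1 d4 to PPARg d10, the next from PPARg d10 to PPARg d4, and below PPARg d4 the groups ran from 165 to 133 with neighbours overlapping except PPARg d2 and vector d0. Nabp1 put PPARg d10, at 413, above EBF1 d4, at 264, with overlapping arrays, and EBF1 d10 above both at 736. For 4931406C07Rik the 3 groups of d10 were at the top, at 1431 with EBF1, 490 with PPARg and 367 with vector, and vector d10 overlapped EBF1 d4, at 353.

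Cells with the empty vector, which the rule that chose the members does not name, gave the course without an insert. The rule does not say which cells EBF1 cells were set against. If vector arrays of d4 and d10 had a part in the choice, the tests on those days would not be independent of it. For Impdh1, vector d4 minus d0 was 0.16 ± 0.14 (SE, n = 7 and 4, 95% interval -0.12 to 0.43, limma adjusted p = 0.49) and vector d10 minus d0 was 0.26 ± 0.17 (n = 3 and 4, -0.07 to 0.60, limma adjusted p = 0.32). Nabp1 in vector cells is given without a test, because it entered the fit through arrays of EBF1 and PPARg alone. Its vector arrays were all at the floor on d0, and 2 of 7 were on d4 and 1 of 3 on d10. Of the 4 probe sets of Impdh1 and 4931406C07Rik, 0 passed on d4, where 24.2% of all probe sets did and where 0 had an unadjusted p under 0.05, and 1 passed on d10, where 15.4% did.
That 1 was 96090_g_at of 4931406C07Rik, with vector d10 above d0 by 0.70 ± 0.25 (SE, n = 3 and 4, limma adjusted p = 0.044). All d10 arrays were of run 3, and all d0 arrays were of runs 1 and 2, so day and run met only through d4. With the run as a block the difference was 0.16 (limma adjusted p = 0.87), and leaving out 1 array gave adjusted p-values from 0.037 to 0.17, above 0.05 without vector d0 replicates 1, 3 or 4 or vector d10 replicates 1 or 3. On d2 the same probe set had -0.54 ± 0.23 against d0 (SE, n = 4 each, limma adjusted p = 0.086), while 96089_at had fallen by 0.47 (limma adjusted p = 0.040), as 1 of 4 tested probe sets against 21.5% of all. This call of 96089_at was lost without vector d0 replicates 1, 2 or 3 or vector d2 replicates 1 or 4, with adjusted p-values up to 0.11.
Within EBF1 cells 0 of 4 probe sets passed the limma test in d2 minus d0 (22.2% of all), with 1 at an unadjusted p under 0.05, and within PPARg cells 0 of 4 (23.6% of all), with 0 at an unadjusted p under 0.05. Probe set 96089_at was lower on d2 in these cells too, at -0.43 with EBF1 and -0.26 with PPARg. Fitted with only the groups compared, both passed (limma adjusted p = 0.013 and 0.047).

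The d4 arrays allowed the same difference to be read within each run, with 2, 2 and 3 arrays of each insert. For Impdh1, EBF1 minus PPARg was 1.24, 1.33 and 1.60 in runs 1, 2 and 3, with no overlap in any run. For Nabp1 it was 1.62, 0.69 and 0.89, and within each run no arrays overlapped, although they did over all runs. With 2 or 3 arrays of each insert such a separation can occur without a difference, and its share over all probe sets was not counted. For 4931406C07Rik (96090_g_at) it was 0.32, 0.06 and 0.76, and the run with the largest value held the 2 high EBF1 arrays. Its probe set 96091_at gave -0.25, 0.28 and 0.22.

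**Figure D4:**
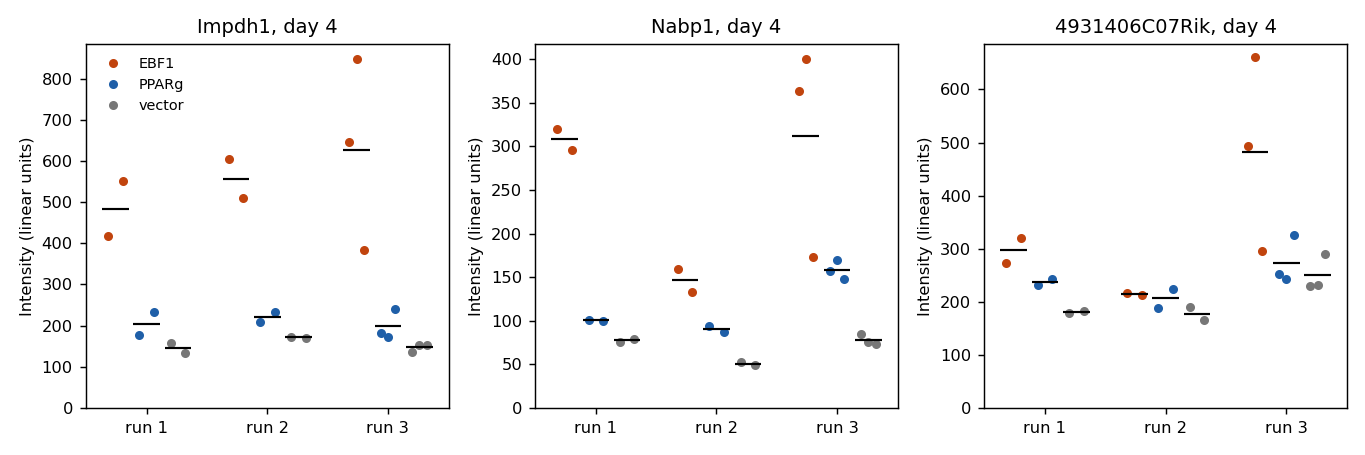
Intensity (linear units) on the d4 arrays of each run, with EBF1, PPARg and vector from left to right and black bars for the means. The Impdh1 arrays with EBF1 lie above those with PPARg in each run, and for 4931406C07Rik the difference is 0.06 on the log2 scale in run 2 and 0.76 in run 3.

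Markers of fat cells moved with these days and inserts, and their values are set beside the genes. The summed intensity of the 15 measured adipocyte markers of 18 listed ran on d4 from 17350 to 26254 with EBF1, from 21219 to 24956 with PPARg and from 13964 to 17882 with vector. The EBF1 arrays spanned those of PPARg. On d10 the sums were 40596 and 32850 with EBF1, 28691, 28817 and 32676 with PPARg, and between 6504 and 8937 with vector. Fabp4, a fatty acid carrier of adipocytes, was under the floor on every d0 array, and no marker was at the floor on every array of a group from d2 on.
EBF1 replicate 7 of d4, with the lowest sum of its group at 17350, read 384 for Impdh1, against at most 173 on any vector array of that day. On d10 EBF1 replicate 2 and PPARg replicate 3 had nearly equal sums, 32850 and 32676. On these 2 arrays Impdh1 was 611 and 379, 4931406C07Rik was 936 and 620, and Nabp1 was 564 and 551. The part of the adipocyte share in the differences was not tested. Of the 15 adipocyte markers, 2 rose and 3 fell in EBF1 minus PPARg on d4, where 6.17% of 5766 genes passed, and 0 rose and 1 fell on d10, where 1.23% did. Gpd1 and Adipoq rose by 0.90 and 0.75, and Plin4, a lipid droplet coat protein, was at -1.27 (limma adjusted p = 3.50e-09).
Of 16 tested proliferation markers, 13 were lower with EBF1 than with PPARg on d0 (6.36% of all genes passed), 5 were higher on d2 (5.34%), 1 was higher on d4 (6.17%) and 0 passed on d10 (1.23%), where 3 had an unadjusted p under 0.05. The summed intensities of all 17 measured proliferation markers on d10 were 3891 and 4401 with EBF1, 4836, 4919 and 4561 with PPARg, and between 5017 and 5355 with vector, with no overlap. Of 11 fibroblast markers, 3 rose and 0 fell on d0, 3 rose and 1 fell on d2, 1 fell on d4 and 1 rose on d10. The calls on d4 and d10 were both Pdgfra, at -0.49 and 0.79. On d4 and d10, 4 and 5 of the fibroblast markers had an unadjusted p under 0.05. Their summed intensities on d4 ran from 18110 to 21005 with EBF1, from 20123 to 22528 with PPARg and from 22539 to 30915 with vector. On d10 the fibroblast sums were 35207 and 35286 with EBF1, 28742, 28739 and 27245 with PPARg, and between 44632 and 47878 with vector, with no overlap. The part of proliferation and fibroblast content in the differences was not tested. None of 7 B lymphocyte and 4 macrophage markers passed the limma test on d4 or d10, and 0 had an unadjusted p under 0.05. The summed intensities of all 10 measured B lymphocyte markers on d4 ran from 1569 to 1980 with EBF1 and from 1449 to 1943 with PPARg. Those of all 8 measured macrophage markers ran from 685 to 938 with EBF1 and from 653 to 941 with PPARg.

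**Figure D5:**
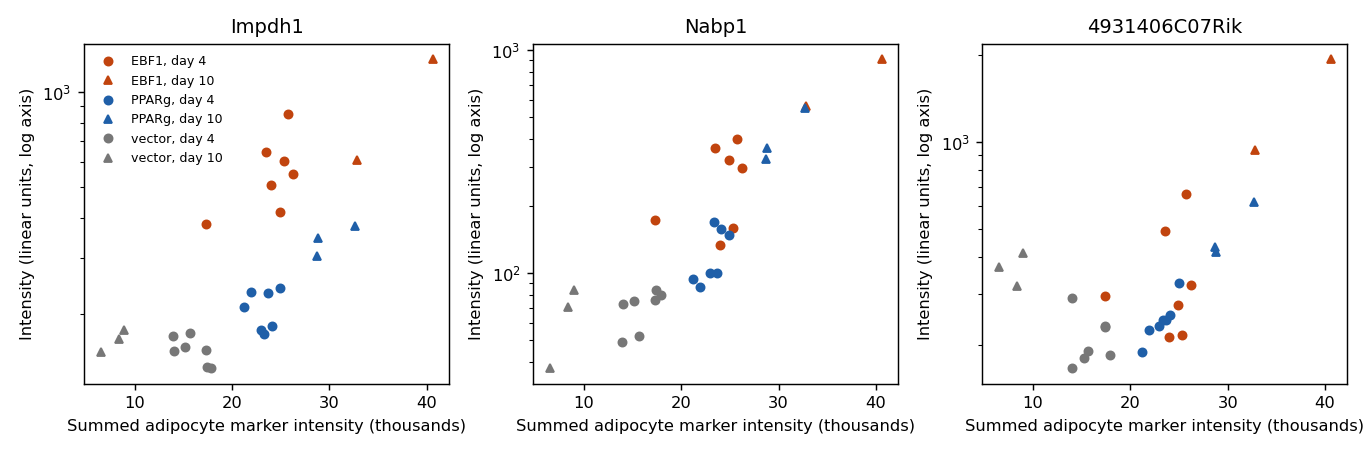
Intensity of each gene (linear units on a log axis) against the summed intensity of 15 adipocyte markers on the arrays of d4 (circles) and d10 (triangles). At sums between 21219 and 26254 the Impdh1 values with EBF1 lie above those with PPARg, and for Nabp1 the d10 arrays with sums of 32850 (EBF1) and 32676 (PPARg) read 564 and 551.

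The inserts themselves were seen unequally. The Pparg probe set averaged 69.1 ± 14.2 with PPARg on d0, when every array with EBF1 or with vector lay under the floor (SD, n = 4), and on d4 it was 208 ± 51.7 with EBF1, 218 ± 57.4 with PPARg and 84.7 ± 8.68 with vector (SD, n = 7 each). The Ebf1 probe set read 216 ± 36.0 with EBF1, 192 ± 17.0 with PPARg and 199 ± 22.4 with vector on d4, so the arrays gave no check of the EBF1 label. No source used here says whether that probe set covers the transduced transcript.

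Around Impdh1, 11 of 19 listed genes of purine and guanine nucleotide synthesis were tested, and most did not share its difference. The list also held Ctps, which makes CTP, and the ribonucleotide reductase subunits Rrm1 and Rrm2, which are not enzymes of purine synthesis. In EBF1 minus PPARg, 0 rose and 4 fell on d0 (6.36% of all genes passed in either direction), 2 rose and 0 fell on d2 (5.34%), 1 rose and 0 fell on d4 (6.17%), and 0 rose and 1 fell on d10 (1.23%). Those that fell on d0 were Gart, Rrm1, Rrm2 and Ctps, and those that rose on d2 were Rrm2 and Ctps. The median log2 difference was 0.07 on d4, beside 0.05 over all genes, and -0.05 on d10, beside 0.02. The genes called on d4 and d10 were the same gene, Prps1, which makes the ribose phosphate donor for purine rings. Prps1 read 470 ± 53.2 with EBF1 and 326 ± 16.9 with PPARg on d4 (SD, n = 7 each), a log2 difference of 0.52 ± 0.10 (SE, limma adjusted p = 0.00049). On d10 Prps1 was 428 ± 27.4 with EBF1 and 700 ± 233 with PPARg (SD, n = 2 and 3), a difference of -0.66 ± 0.17 (SE, limma adjusted p = 0.037), which was lost without PPARg replicate 3, at -0.40 (limma adjusted p = 0.31), and without either EBF1 array (limma adjusted p = 0.67 and 0.085). Against vector, 6 of the 11 rose and 0 fell with EBF1 on d4, where 19.5% of all genes passed in either direction, with a median of 0.23 beside 0.04 over all genes. On d10 2 rose and 1 fell against vector, where 18.5% passed, with a median of -0.18 beside -0.02.
Of 9 tested genes of purine salvage and breakdown, 0 rose and 3 fell on d4 and 0 passed on d10, where 1 had an unadjusted p under 0.05. Pnp, which splits purine nucleosides, was 676 ± 89.1 with EBF1 and 988 ± 142 with PPARg on d4 (SD, n = 7 each), a difference of -0.54 ± 0.12 (SE, limma adjusted p = 0.0022). Xdh, the enzyme that forms uric acid, was 264 ± 69.1 with EBF1 and 387 ± 105 with PPARg, at -0.55 ± 0.16 (limma adjusted p = 0.026), and Samhd1, a deoxynucleotide triphosphohydrolase, was at -0.43 ± 0.09 (limma adjusted p = 0.0013). The Xdh call was lost when EBF1 replicates 5 or 6 or PPARg replicates 2, 3 or 4 were left out, with adjusted p-values up to 0.099.

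Around Nabp1, 16 of 28 listed genes of single-stranded DNA binding and double-strand break repair were tested, and 0 rose or fell in EBF1 minus PPARg on d2, d4 and d10 by limma. Over all genes 5.34%, 6.17% and 1.23% passed on these days, so few calls would be looked for among 16 genes. At an unadjusted p under 0.05 there were 0 on d2, 1 on d4 and 1 on d10. On d0 1 fell by limma, where 6.36% of all genes passed. Their median log2 difference was 0.02 on d4 and 0.01 on d10, beside 0.05 and 0.02 over all genes.
Around 4931406C07Rik, 14 of 28 listed ester hydrolases were tested, 3 of which (Lpl, Lipe and Pnpla2) are also among the adipocyte markers. In EBF1 minus PPARg 0 rose and 1 fell on d4 (6.17% of all genes passed), and 2 rose and 1 fell on d10 (1.23%), with medians of 0.00 and 0.26 beside 0.05 and 0.02 over all genes. Ces1d, a carboxylesterase of fat and liver, read 639 ± 105 with EBF1 and 288 ± 61.9 with PPARg on d10 (SD, n = 2 and 3), a difference of 1.16 ± 0.16 (SE, limma adjusted p = 3.09e-06). Lipa, the lysosomal acid lipase, was 562 ± 21.8 with EBF1 and 405 ± 7.74 with PPARg, at 0.47 ± 0.11 (limma adjusted p = 0.012). The cytosolic acyl-CoA thioesterase gene Acot7 was lower on d4, at -0.47 ± 0.09 (limma adjusted p = 0.00053), and on d10, at -0.71 ± 0.16 (limma adjusted p = 0.0065). Without EBF1 replicate 1 of d10 the Lipa and Acot7 calls of d10 were lost (limma adjusted p = 0.44 for both), as was that of Acot7 without PPARg replicate 3 (limma adjusted p = 0.0928), while Ces1d had adjusted p-values of at most 0.0072 whichever array was left out.

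The genes whose group means most resembled each member differed between members. Likeness was Pearson's r of the mean log2 intensity over the 12 groups, among 5766 genes, and it is given as a description of points that share arrays and days. For Impdh1 the nearest were Mrpl34 (r = 0.99), a mitochondrial ribosomal protein gene, Coq5 (0.98), which acts in coenzyme Q synthesis, and Ogdh (0.97), a subunit of the oxoglutarate dehydrogenase complex. Mrpl34 averaged 496 with EBF1, 288 with PPARg and 294 with vector on d4. For Nabp1 they were Gpd1 (0.99), the cytosolic glycerol phosphate dehydrogenase, S100a1 (0.99), a calcium binding protein, and Adig (0.99), adipogenin, of which S100a1 was under the floor in the mean of every group of d0 and d2, as Nabp1 was. Gpd1 averaged 2218 with EBF1, 1133 with PPARg and 534 with vector on d4. For 4931406C07Rik they were G3bp2 (0.97), an RNA binding protein of stress granules, Dnajc15 (0.97), a mitochondrial co-chaperone, and Ifi27 (0.97), an interferon-inducible gene. Ifi27 averaged 3395 with EBF1, 2341 with PPARg and 1249 with vector on d10. Nabp1 stood at position 6 in the order for Impdh1 (r = 0.95), and 4931406C07Rik at position 212 (r = 0.87).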

How the data were processed

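The authors deposited 1 linear intensity per probe set and array, per the series' value table. The sources used here do not give the algorithm that made and scaled these intensities. Array means ran from 309 to 370, and no further scaling was applied. Column 2 of the deposited array experiment files holds instrument settings (other values), per the file headers, and was read only to tell 3 array runs apart by a comment that does not say whether they mark hybridisation or stimulation. By GEO's platform annotation, 1 symbol belonged to 10855 probe sets (10839 found by Entrez identifier), several to 396 and none to 1237. A gene was represented by its probe set of the highest mean. Groups came from the sample titles.

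Intensities were raised to a floor, the pooled 20th percentile (54.5), and put on the log2 scale. After 66 control probe sets were left out, 7619 probe sets above the pooled median (158) on at least 2 arrays were fitted with limma 3.58.1 in R 4.3.3: 12 group means over all 53 arrays, an intensity trend, and Benjamini-Hochberg adjustment within each comparison at a threshold of 0.05. The fit was tested on simulated data. Nabp1 was given without a test in every comparison, since its filter was passed through the arrays that chose it. Members and lists were chosen with earlier results of these data known. Genes named from lists had the largest differences past the test in EBF1 minus PPARg on d4 and d10, up to 3 per list and day. The nucleotide synthesis genes called on d0 and d2 are named too. Gpd1, Adipoq, Plin4 and Pdgfra among the markers were chosen after their values were seen. For each member the 3 genes with the highest correlation of group means are named. The alternatives took each array left out, a higher floor (the 40th percentile, 115), quantile-normalized values, every probe set without a filter, only the groups compared, run or replicate number as a block, and each run alone. Replicate numbers come from the titles, which do not say that a number marks a shared stimulation. The correlation of same-numbered arrays' deviations was above 0.1 for every pair in EBF1 minus vector on d2 (0.62 to 0.68) and in PPARg d10 minus d0 (0.31 to 0.44). It was also above 0.1 in EBF1 minus vector on d10 (0.58 to 0.69) and in EBF1 d10 minus d0 (0.48 to 0.57). These had 2 pairs each, and the rule for pairing asked for at least 3. In the other comparisons some pairs were at or below 0.1. The block changed no member's call in EBF1 minus vector on d2, where 0 had passed. In the comparisons with d10 named here no member was tested.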

Additional observations from a re-analysis of the deposited data

Results flagged for a closer look

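Impdh1 on vector replicate 3 of d2 read 114.569, below the other 3 arrays of its group, which lay between 138 and 141. Its gap to the nearest array was 0.871 of the group's range. Of 39 sets of values examined, each 1 probe set in 1 group of 4 or 7 arrays, this was the 1 flagged. Chance flags about 1 in 20 such sets, and sets of different probe sets share arrays.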

How the results depend on the processing

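The number of arrays limits these results, above all the 2 EBF1 arrays of d10, and the platform's one Impdh1 and one Nabp1 probe set were not checked by a second. The called differences of members, vector d10 minus d0 of 96090_g_at and vector d2 minus d0 of 96089_at, turned direction under no alternative. Untested differences did turn. EBF1 minus PPARg of 96091_at on d4 was -0.25 in run 1 and 0.28 in run 2. Nabp1 vector d10 minus d0 was 0.19 to 0.50 with 1 array left out, and -0.15 with run as a block. The number of probe sets past the test in EBF1 minus PPARg moved by more than 1.5 times as follows. On d0 it was 459, and 20 in run 1 alone and 11 in run 2 alone. On d2 it was 392, and 636 with only the groups compared and 94 in run 2 alone. On d4 it was 453, and 694 with run as a block, 715 with the replicate block, and 42, 2 and 25 in runs 1, 2 and 3 alone. On d10 it was 101, and 176 with run as a block, 192 with the replicate block, and 0 by limma with only the groups compared or run 3 alone, where 470 had an unadjusted p under 0.05. Fewer arrays enter the fits of single runs and groups, and the cause of the other moves was not tested. Leaving out 1 array gave 315 to 479 on d0, 275 to 400 on d2, 305 to 504 on d4 and 12 to 119 on d10, the lowest without EBF1 replicate 1, with 54 and 57 without PPARg replicates 1 and 2.
In single runs of d4, EBF1 minus PPARg for Nabp1 was 1.62 in run 1 and 0.69 in run 2, and for 4931406C07Rik (96090_g_at) 0.059 in run 2 and 0.76 in run 3. Leaving out 1 array gave ranges of 0.84 to 1.89 for Impdh1, 0.49 to 1.17 for Nabp1 and 0.96 to 2.00 for 4931406C07Rik on d10, and 1.31 to 1.504, 0.92 to 1.19 and 0.26 to 0.54 on d4. On d0 and d2 it gave -0.04 to 0.01 and 0.04 to 0.10 for Impdh1, and -0.06 to 0.16 and 0.05 to 0.18 for 4931406C07Rik, and on d2 against d0 0.05 to 0.12 and -0.06 to 0.17.
For vector d10 minus d0 of 96090_g_at, the limma adjusted p was 0.053 with quantile normalization and 0.072 with no filter. For vector d2 minus d0 of that probe set it was 0.0239 with the replicate block and 0.0206 with run as a block; the pairing was not borne out there, with correlations of -0.10 to 0.78. For 96089_at it was 0.0654 with no filter, and for its EBF1 d2 minus d0, at 0.066 by the fit reported, it was 0.0435 with run as a block. With only the groups compared, the limma adjusted p of 96089_at in d2 minus d0 was 0.0129 with EBF1 and 0.0474 with PPARg. The calls on d10 of Prps1, Acot7, Ces1d and Lipa, fitted with only the groups compared, had limma adjusted p-values of 0.78, 0.64, 0.26 and 0.45, and that of Xdh on d4 had 0.12. In no single run did the d4 calls of Prps1, Xdh, Pnp, Samhd1 and Acot7 pass.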

Other observations

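Among the genes of nucleotide synthesis, the difference between EBF1 and PPARg cells on d2 was above that on d0 for 4 of 11 tested genes and below it for 0, where 6.54% of all probe sets passed this test of the change in either direction. Ctps, which makes CTP, changed by 1.03 ± 0.16 and Rrm2, the small subunit of ribonucleotide reductase, by 1.44 ± 0.23 on the log2 scale (SE, limma adjusted p = 1.5e-05 and 1.8e-05). Rrm2 read 125 with EBF1 and 216 with PPARg on d0, and 223 with EBF1 and 149 with PPARg on d2. Rrm1, its large subunit, and Gart, an enzyme of the purine ring, changed by 0.76 and 0.42. These 4 genes were named after their values were seen. Over the same days 13 of 16 proliferation markers were lower with EBF1 on d0 and 5 were higher on d2. Their difference on d2 was above that on d0 for 13 of 16 and below it for 0, with a median of 1.06, and their part in these changes was not tested.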
